A study of Homo sapiens and Mus musculus with 6 samples.

Results

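The promoter contacts of the respiratory chain and ATP synthase genes were taken from the promoter Capture Hi-C (CHi-C) interactions called in human GM12878 cells and in mouse embryonic stem cells (mESCs). A gene was a member when its symbol began with NDUF, UQCR or ATP5, or with COX followed by 4, 5, 6, 7 or 8, and a call was taken when its bait, the captured HindIII fragment, carried such a symbol. In GM12878, 90 of 15389 listed baits carried 86 member symbols and made 543 of 92929 calls. In mESCs, 58 of 16265 listed baits carried 57 member symbols and made 384 of 101841 calls. The rule reads names and not roles, so it also took in antisense transcripts, pseudogenes and neighbours such as Cox4nb, which is no cytochrome c oxidase subunit. These, with a few further genes placed in no named class, are described apart as "other" symbols.

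The respiratory chain sits in the inner mitochondrial membrane. Complex I (NADH dehydrogenase, NDUF genes), complex III (the cytochrome bc1 complex, UQCR genes) and complex IV (cytochrome c oxidase, COX genes) pass electrons from NADH to oxygen and pump protons, and ATP synthase (ATP5 genes) uses the returning protons to make ATP. Most of the subunits are encoded by nuclear genes scattered over the chromosomes and active in nearly all tissues, while a few complex IV subunits have muscle or testis forms.

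GM12878 is a lymphoblastoid line derived from human B lymphocytes, and 3 biological replicates of it were fixed with formaldehyde, cut with HindIII and captured on promoter fragments. The mESCs were J1 cells of the 129S4/SvJae strain, untreated, grown on irradiated embryonic fibroblasts that were removed by passaging, with 2 CHi-C replicates and 1 Hi-C library without capture. CHiCAGO, the authors' caller, weighs the read count of a fragment pair against its expected background, and a pair with a score of at least 5 is listed. The deposited calls merge the replicates, so each cell type gave a single set of calls with no spread between replicates and no per-library depth, and all comparisons here are descriptions with no test. Intervals are 95% Wilson intervals for shares and order-statistic intervals for medians, cover counting error only, and treat neighbouring calls as independent, which they are not. A contact does not measure expression, so the labelled cell types were not checked against expression markers here.

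The rule was also applied to current RefSeq symbols, which matched 92 human protein-coding genes. Of these, 73 had a call from a bait with their symbol or an alias. Another 6 appeared as other ends only (the captured-to fragments, among them ATP5C1, ATP5I and NDUFA11). The remaining 13 had no listed call, including NDUFS4, NDUFS5, COX5B, COX7C and COX8A. The 73 include ATP5IF1, ATP5MJ and ATP5MK, whose baits (ATPIF1, C14orf2 and USMG5) are not members. Renamed members such as NDUFA4 are not among the 92. Of 87 mouse genes, matched by annotated symbol without aliases, the numbers were 57, 4 and 26. The share of all protein-coding genes with a call was not computed, so these counts are not read as high or low. The mouse baits name a single gene each, and for 16 of the mouse genes without a call of their own the annotated gene start lay on a listed bait named after a neighbour. Ndufs3 lay on the Kbtbd4 bait with 12 calls, Ndufa13 on the Tssk6 bait with 13 calls, Ndufb9 on the Tatdn1 bait with 10 calls, and Cox4i1 on the Cox4nb bait with 1 call. No such case was found in GM12878, where 68 of the 90 member baits (75.6%) carried 2 or more symbols, against 35.8% of the other baits. A bait with several symbols has more chances to match the rule, so this share is set in part by the rule, and the human and mouse bait lists are not equivalent.

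The promoters of these genes are known targets of NRF1, GABPA and YY1, regulators of nuclear genes for mitochondrial proteins. An 8-base core of each motif was searched on both strands in the 300 bases from 250 before to 50 after the gene start. The letters were GCATGCGC for NRF1, CCGGAAGT for GABPA, an ETS factor, and AAGATGGC for YY1, and the reverse complement was counted too. The human sequences were the RefSeq promoters (table build GRCh38.p14, placed on hg19 by exact match), found for 56 member symbols, and those of mouse were read from mm9 at the annotated starts of 53. NRF1 letters were present in 9 of the 56 human member promoters (16.1%, interval 8.69 to 27.8%) against 4.26% of all 15842 promoters, YY1 letters in 8 (14.3%, interval 7.42 to 25.7%) against 3.91%, and ETS letters in 6 (10.7%, interval 5.00 to 21.5%) against 6.19%. In mouse, NRF1 letters were present in 6 of 53 (11.3%, interval 5.29 to 22.6%) against 3.31% of 22208, YY1 letters in 6 (11.3%) against 3.28%, and ETS letters in 3 (5.66%, interval 1.94 to 15.4%) against 4.72%. At least 1 of the 3 was found in 20 of 56 human promoters (35.7%, all promoters 13.2%) and in 14 of 53 mouse promoters (26.4%, all promoters 10.6%). Of 36 genes with a promoter in both genomes, 6 held the same letters in both: ATP5G2, NDUFA6 and NDUFAF4 for NRF1, ATP5H and UQCRH for ETS, and NDUFA9 for YY1. How often other genes hold the same letters in both genomes was not counted. A match is only letters and says nothing of binding in these cells.

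A gene of each kind is shown in both genomes, 5′ to 3′ on the gene's strand, because the same letters stand in both genomes, and ATP5G2 and Uqcrh are described at length further on. Capitals mark the matched letters, and in Atp5g2 matches on the 2 strands overlap. The human positions are hg19 (ATP5G2 chr12:54069818-54070117, minus strand; UQCRH chr1:46769120-46769419, plus strand; NDUFA9 chr12:4758030-4758329, plus strand), those of mouse are mm9 (Atp5g2 chr15:102501429-102501728, Uqcrh chr4:115747627-115747926, Ndufa9 chr6:126799113-126799412, all minus strand), and each window lies on the gene's own bait.
ATP5G2: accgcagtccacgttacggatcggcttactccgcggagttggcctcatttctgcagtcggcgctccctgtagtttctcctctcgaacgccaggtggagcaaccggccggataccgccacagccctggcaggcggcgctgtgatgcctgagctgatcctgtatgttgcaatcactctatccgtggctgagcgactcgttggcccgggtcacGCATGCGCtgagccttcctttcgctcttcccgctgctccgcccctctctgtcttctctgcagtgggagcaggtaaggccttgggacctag
Atp5g2: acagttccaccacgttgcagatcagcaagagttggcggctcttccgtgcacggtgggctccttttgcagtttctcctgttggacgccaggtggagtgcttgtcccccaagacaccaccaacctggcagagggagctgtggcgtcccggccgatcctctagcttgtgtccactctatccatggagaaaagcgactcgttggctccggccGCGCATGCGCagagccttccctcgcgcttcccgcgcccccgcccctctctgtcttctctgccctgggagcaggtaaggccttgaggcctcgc
UQCRH: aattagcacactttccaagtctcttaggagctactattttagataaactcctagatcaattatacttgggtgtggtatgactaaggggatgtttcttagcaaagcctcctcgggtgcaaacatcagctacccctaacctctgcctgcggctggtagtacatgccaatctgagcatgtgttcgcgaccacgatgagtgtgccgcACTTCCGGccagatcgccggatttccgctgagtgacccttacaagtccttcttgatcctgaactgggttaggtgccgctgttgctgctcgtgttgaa
Uqcrh: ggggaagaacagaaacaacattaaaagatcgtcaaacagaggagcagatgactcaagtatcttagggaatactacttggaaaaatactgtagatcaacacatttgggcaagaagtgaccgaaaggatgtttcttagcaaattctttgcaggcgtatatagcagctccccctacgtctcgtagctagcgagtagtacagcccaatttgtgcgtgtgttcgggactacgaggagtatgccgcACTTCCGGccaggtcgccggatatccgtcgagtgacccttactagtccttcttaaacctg
NDUFA9: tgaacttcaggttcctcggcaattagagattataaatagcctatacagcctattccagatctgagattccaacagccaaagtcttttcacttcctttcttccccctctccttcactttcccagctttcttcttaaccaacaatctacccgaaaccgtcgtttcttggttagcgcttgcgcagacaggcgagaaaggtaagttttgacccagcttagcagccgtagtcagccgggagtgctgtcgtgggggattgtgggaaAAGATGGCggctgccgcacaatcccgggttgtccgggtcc
Ndufa9: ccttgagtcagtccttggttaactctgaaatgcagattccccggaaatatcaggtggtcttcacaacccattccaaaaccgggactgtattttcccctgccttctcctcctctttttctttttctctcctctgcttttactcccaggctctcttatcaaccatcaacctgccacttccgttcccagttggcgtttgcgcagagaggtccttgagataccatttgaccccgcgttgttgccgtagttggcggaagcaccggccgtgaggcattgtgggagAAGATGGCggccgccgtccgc
The NRF1 letters GCATGCGC began 40 bases before the start of both human ATP5G2 and mouse Atp5g2. In mouse the overlapping match on the other strand began 42 bases before the start. The ETS letters began 47 bases before the start of UQCRH and 10 bases before that of Uqcrh, and the YY1 letters 10 bases after the start of NDUFA9 and 29 bases after that of Ndufa9.

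Member baits made about as many calls as the rest. The median was 4 calls per listed bait in GM12878 (interval 3 to 5, 90 baits) and 4 in mESCs (interval 3 to 7, 58 baits), against 3 among the other baits of each cell type. At least 10 calls were made by 19 of the 90 GM12878 member baits (21.1%, interval 13.95 to 30.6%), where 17.6% of all listed baits did so, and by 14 of the 58 mESC member baits (24.1%, interval 15.0 to 36.5%), where 18.9% did. A single call was made by 16 GM12878 baits (17.8%, all baits 25.1%) and by 11 mESC baits (18.97%, all baits 23.4%). Each of these intervals holds the value of the whole list. The median length of member fragments was 7570 bp in GM12878 (interval 6436 to 8617 bp) against 6934 bp for the other baits. In mESCs it was 6940 bp (interval 5499 to 8315 bp) against 5732 bp. Both length intervals hold the other baits' value. The part of fragment length in the numbers of calls was not tested.

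**Figure D1:**
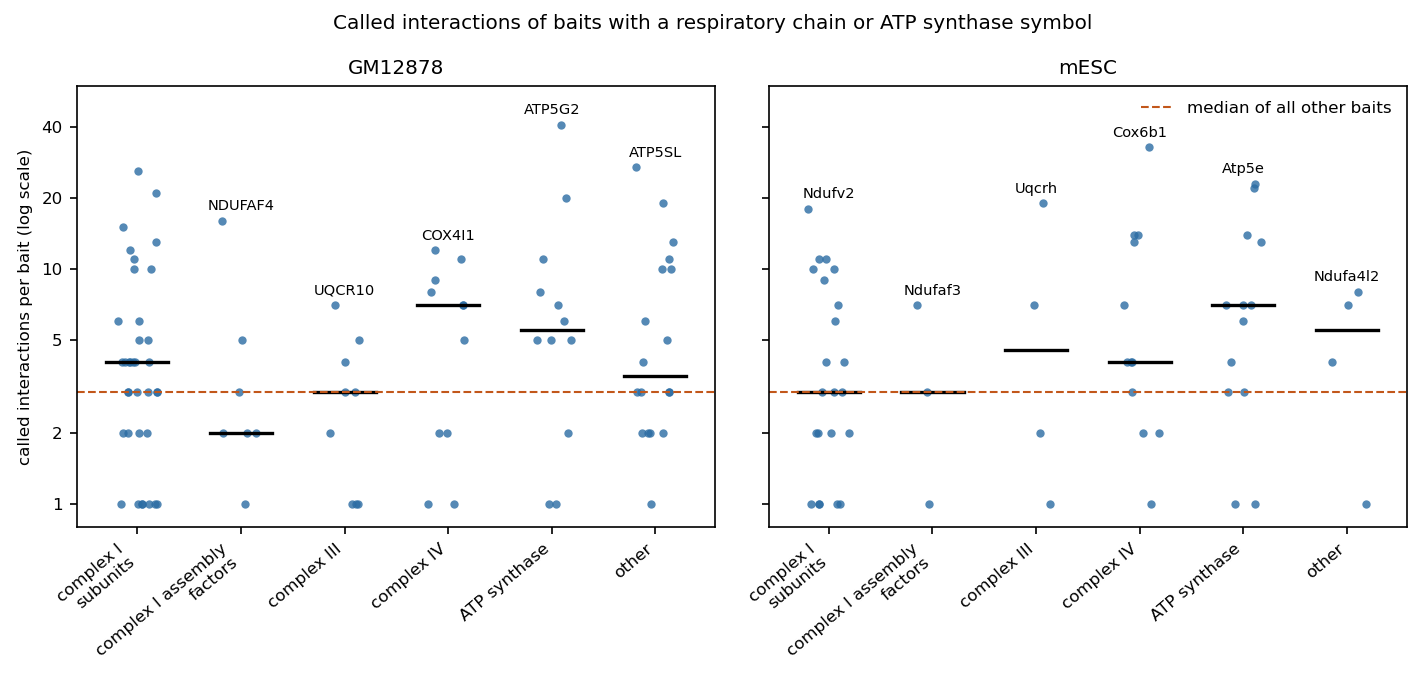
Called interactions per listed bait on a log scale in GM12878 (left) and mESCs (right), by the class of the member symbol; each point is a bait, black bars are class medians, the dashed line is the median of 3 calls over all other baits, and the bait with the most calls is named in all classes but complex I of GM12878. Values within a class run from 1 call to as many as 41 (ATP5G2) or 33 (Cox6b1).

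The kinds of contact are given beside those of all other baits. The median *cis* distance between fragment midpoints was 157.8 kb in GM12878 (interval 144.0 to 167.6 kb), below the 173.9 kb of the other baits, and 164.3 kb in mESCs (interval 144.1 to 187.3 kb), above their 139.0 kb. With a score of at least 10 the mESC order turned, to 91.7 kb for members (interval 51.1 to 133.8 kb) against 109.6 kb, and members were then the shorter in both cell types (GM12878 134.3 against 148.5 kb). Bait-to-bait interactions, which join 2 captured promoters, made up 33.0% of member calls in GM12878 (interval 29.1 to 37.0%) against 29.4%, and 43.0% in mESCs (interval 38.1 to 48.0%) against 36.3%. At least 1 such call was made by 61 of the 90 GM12878 baits (67.8%), close to the 61.3% of all listed baits, and by 41 of the 58 mESC baits (70.7%), close to 68.2%. In GM12878 the 161 calls of baits with member symbols alone had a share of 23.6%. This is below the 29.4% of other baits, but those were not restricted by their number of symbols. With a score of at least 10 the shares of all member baits and of other baits were 44.2% and 44.7%. The mESC share of calls included Uqcrh, all 19 of whose calls were bait-to-bait. Unbaited other ends of member baits overlapped an annotated gene start in 17.3% of GM12878 calls (63 of 364), as did 17.5% of those of other baits, and in 17.8% of mESC calls (39 of 219, interval 13.3 to 23.4%) against 12.2%.

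**Figure D2:**
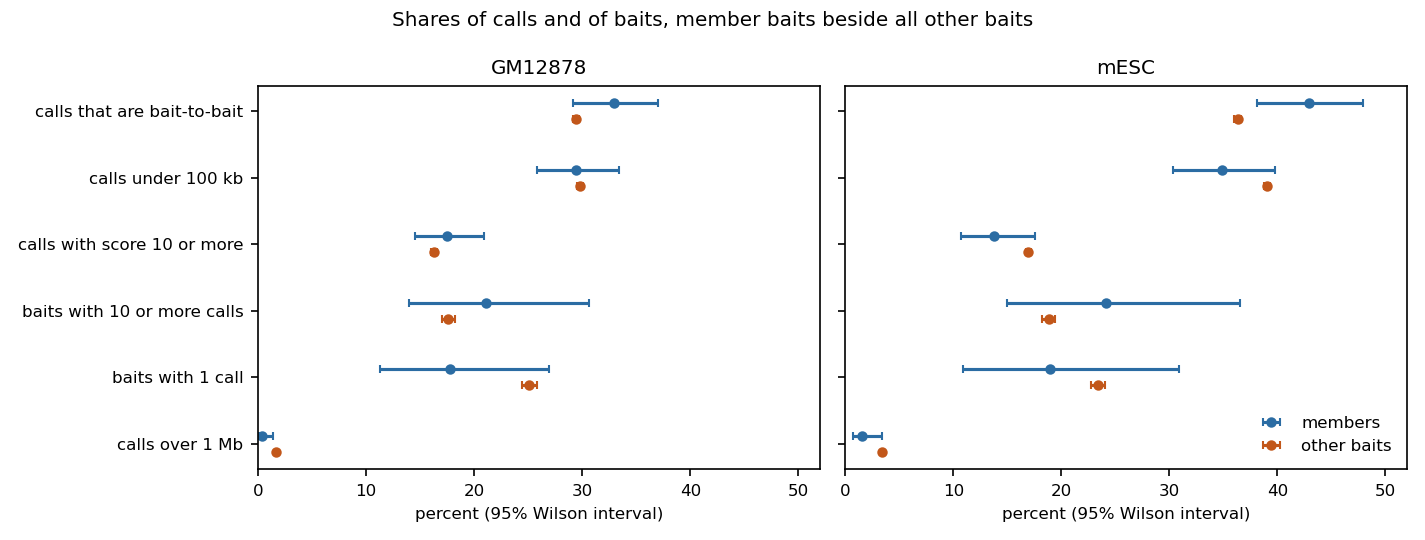
Shares of calls or of listed baits in GM12878 (left) and mESCs (right), in percent with 95% Wilson intervals, for member baits (blue) and all other baits (orange). Bait-to-bait calls stand at 33.0% and 43.0% for members against 29.4% and 36.3%, and calls over 1 Mb at 0.368% and 1.56% against 1.64% and 3.38%.

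Among complex I subunits, 31 symbols on 36 GM12878 baits made 201 calls (median 4, range 1 to 26), and 21 symbols on 22 mESC baits made 112 (median 3, range 1 to 18). A bait with symbols of several classes is counted in each class. The classes follow the symbols, so NDUFA4, now named COXFA4 in RefSeq and known as a complex IV subunit, is counted here with its 1 call in GM12878. NDUFC1, a small membrane-arm subunit that shares its bait with NAA15, made 21 calls from that bait and 3 from a neighbouring fragment. Of these 24, 9 overlapped ELF2, which encodes an ETS factor, at 125.7 to 267.4 kb. In mESCs the Ndufc1 bait made 4 calls, to Ccrn4l (187.5 kb), the Elf2 start (133.8 kb), Naa15 (6.76 kb) and an intergenic fragment. All 3 genes were also reached in GM12878, but there NAA15 is a gene of the bait itself and not a separate partner. NDUFB6, an accessory subunit, reached 2 places in both cell types. In GM12878 the call to the start of ACO1, the cytosolic aconitase and iron-regulatory protein, scored 22.8 on 28 reads at 185.5 kb, a second call lay within the gene at 144.0 kb, and 6 calls overlapped APTX at 394.8 to 449.0 kb. In mESCs, 1 call overlapped Aco1 at 93.8 kb with a score of 11.3, and 3 overlapped Aptx at 413.3 to 422.1 kb.

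The NDUFB3 bait, which also carries FAM126B, made the highest-scoring complex I call in GM12878, to ORC2 at 110.8 kb (score 28.4 on 20 reads). All of its 10 calls were bait-to-bait, and they included CASP10 (score 14.3) and CASP8 (score 11.9), the initiator caspases, on 11 and 9 reads. In mESCs the Ndufv2 bait made the most complex I calls, 18, on 5 to 35 reads. NDUFV2, a core subunit of the NADH-oxidising part, made 3 calls in GM12878.

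The complex I assembly factors are not part of the finished complex. In GM12878, 7 of them on 7 baits made 31 calls, of which NDUFAF4 made 16. The highest score in the class was that of the NDUFAF6 bait, shared with CCNE2, to PLEKHF2 (20.4 on 21 reads, 235.3 kb). NDUFAF4 had 4 calls over KLHL32 at 156.3 to 170.6 kb with a score of up to 15.3, and in mESCs all 3 calls of Ndufaf4 lay over Klhl32 at 175.9 to 182.5 kb, with 8 to 11 reads and a score of up to 11.1, the highest of the class there. In mESCs, 3 factors made 11 calls, and Ndufaf3 made 7 of these, all bait-to-bait.

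Complex III gave 27 calls from 9 GM12878 baits (median 3) and 29 from 4 mESC baits (median 4.5). Its bait-to-bait share was 63.0% in GM12878 (interval 44.2 to 78.5%) and 72.4% in mESCs (interval 54.3 to 85.3%). Without Uqcrh the mESC share was 20.0%, or 2 of 10 calls. Uqcrh, the acidic hinge subunit, made 19 calls on 3 to 15 reads, with the highest score, 25.0, to 1700042G07Rik at 98.9 kb. UQCRH in GM12878 made 5 calls within 47.2 kb, none bait-to-bait and on 19 to 58 reads, and both cell types had a call at NSUN4. UQCR10 made the most complex III calls in GM12878, 7, including 2 over LIF, the cytokine gene, at 474.4 and 483.6 kb, and in mESCs Uqcr10 also reached Lif, at 435.3 kb (score 5.04 on 8 reads, just above the threshold). The highest GM12878 score was that of UQCR11 to the REXO1 fragment (20.6 on 15 reads, 225.4 kb).

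Complex IV gave 65 calls from 11 GM12878 baits (median 7) and 101 from 12 mESC baits (median 4). COX6B1, a subunit facing the intermembrane space, made 11 calls in GM12878, all bait-to-bait and on 6 to 22 reads. Cox6b1 made 33 in mESCs, more than any other mouse member, 17 of them bait-to-bait and on 5 to 47 reads, and its highest score was 21.1 (Zbtb32, 24.9 kb). ATP4A, DMKN, NFKBID and SBSN were reached in both cell types, at 88.5 to 250.9 kb in GM12878 and 97.2 to 201.0 kb in mESCs. COX4I1, the widely expressed form of subunit 4, which shares its bait with EMC8, made the most GM12878 calls of the class, 12, all to one side and none bait-to-bait, with 11 of them between 148.4 and 252.8 kb. Of the 12 other ends, 6 were intergenic, 5 overlapped an exon and 1 an intron. The highest GM12878 score of the class was COX6A1 to MSI1 (16.6 on 55 reads, 77.8 kb).

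The tissue-restricted forms of complex IV subunits had calls as well. The heart and muscle forms COX6A2 and COX7A1 made 7 and 1 calls in GM12878 and 7 and 13 in mESCs. The testis form COX6B2 made 2 and 14, the lung form COX4I2 made 7 and 2, and mouse Cox8b, a heart and muscle form, made 14. COX6A2 reached the start of PYCARD, an inflammasome adaptor, and fragments that overlap the integrin genes ITGAD and ITGAX, in both cell types, with scores between 5.11 and 6.91. Of the widely expressed forms, COX6A1 and COX7A2 made 5 and 9 calls in GM12878, and neither had a call of its own name in mESCs, where Cox6a1 lay on the Gatc bait with 2 calls.

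ATP synthase gave 112 calls from 12 GM12878 baits (median 5.5) and 111 from 13 mESC baits (median 7). ATP5G2, which encodes subunit c of the membrane ring, made 41 calls in GM12878, the most of any member, and more than 99.1% of listed baits. Of these, 34 lay to the left, towards lower coordinates, and 24 overlapped ATF7, at 50.2 to 170.1 kb. The highest score was 30.0 on 55 reads at 130.0 kb, and the next was 28.4 on 51 reads at 140.8 kb. Only 2 of the 41 were bait-to-bait. The mESC bait made 7 calls, all bait-to-bait and on 8 to 18 reads. Map3k12 and the Npff fragment, which also holds Tarbp2, were reached in both cell types, at 155.1 and 150.3 kb in mESCs, while 4 mESC calls reached the developmental Hoxc cluster (Hoxc13, Hoxc12, Hoxc6 and Hoxc5, 249.2 to 343.1 kb, scores 6.10 to 9.88). The ATP synthase bait-to-bait share in GM12878 was 15.2% (interval 9.70 to 23.0%), the lowest of the named complexes, and 21.1% without ATP5G2. In mESCs it was 37.8% (interval 29.4 to 47.1%), near the 36.3% of other baits. It was not the lowest there, as complex IV had 36.6%.

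**Figure D3:**
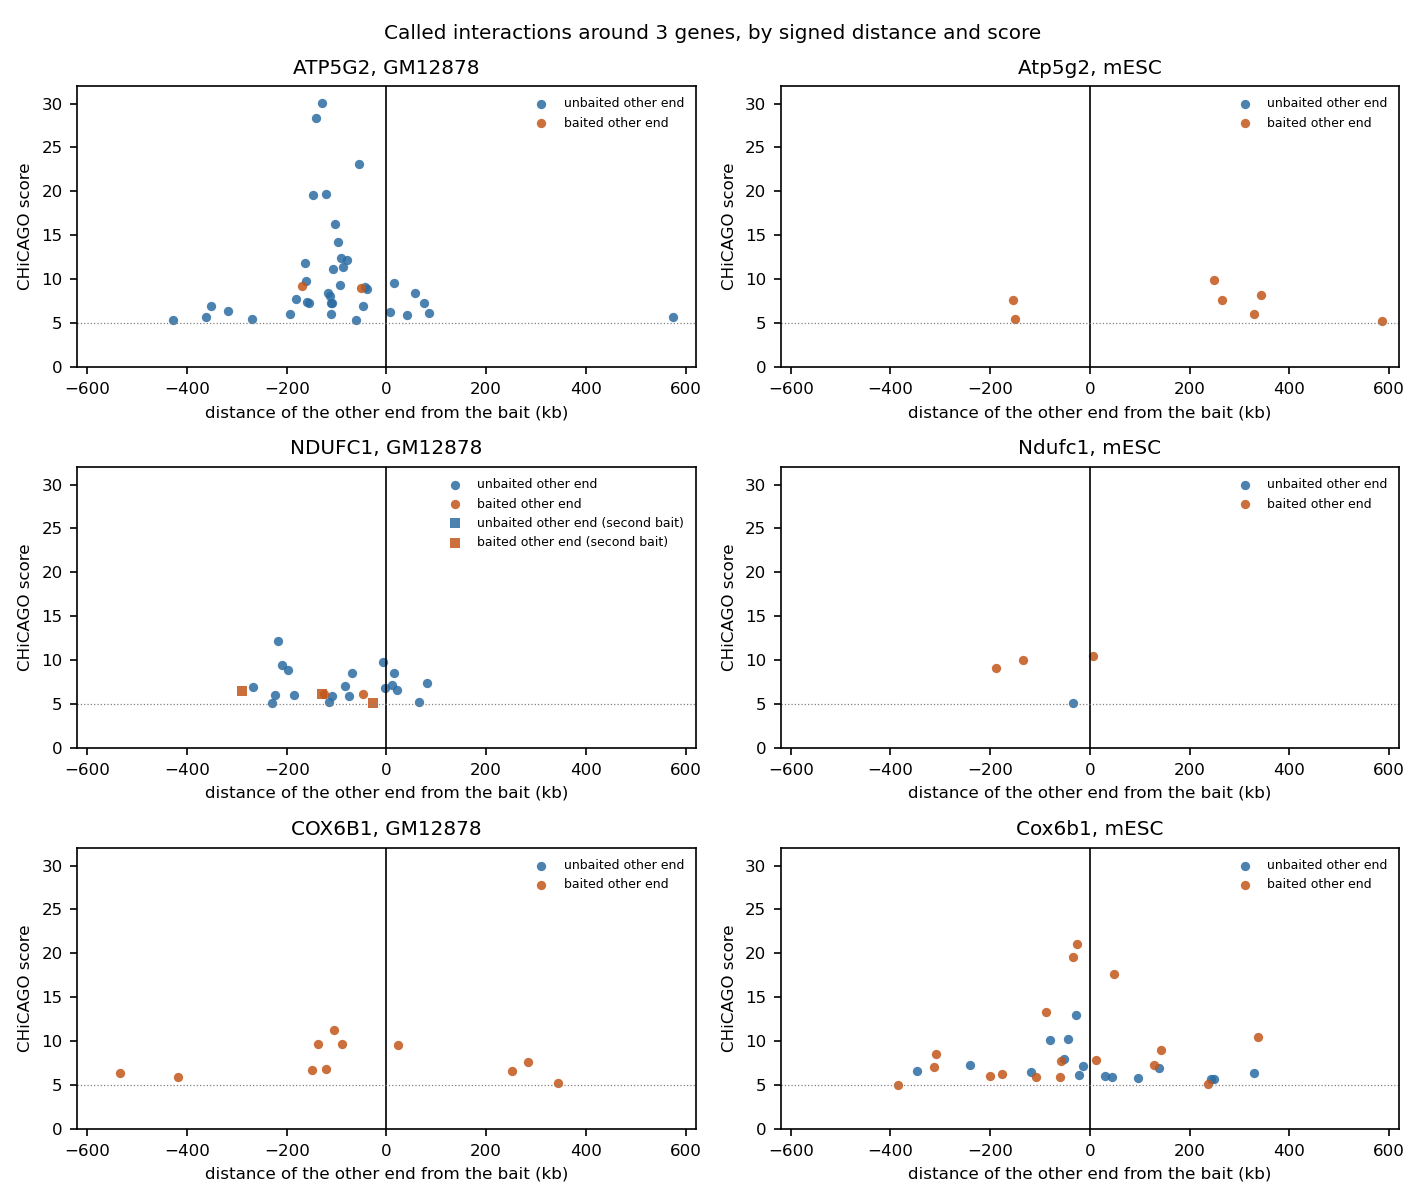
CHiCAGO score of every *cis* call of ATP5G2, NDUFC1 and COX6B1 in GM12878 (left) and mESCs (right) against the distance of the other end from the bait in kb, negative towards lower coordinates; blue marks unbaited and orange baited other ends, squares the second bait of NDUFC1, and the dotted line is the threshold of 5. ATP5G2 shows a block of unbaited calls to the left in GM12878 and 7 baited ones in mESCs, and COX6B1 has baited other ends alone in GM12878 but both kinds in mESCs.

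ATP5H, the stalk subunit d, made 20 calls in GM12878 and 4 in mESCs. Atp5e, the epsilon subunit of the rotor, made 23 in mESCs and 5 in GM12878, of which 6 and 4 overlapped GNAS, the imprinted G protein alpha gene, at 135.3 to 180.6 kb and 135.9 to 163.4 kb. In mESCs, Atp5k, the membrane subunit e, made 22 calls, 6 of them over Gak, and Atp5c1, the gamma subunit of the rotor, made 14. The highest mESC score of the class was Atp5a1, the alpha subunit of the catalytic head, to Haus1, 8.13 kb away (43.2 on 55 reads).

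The remaining symbols were pseudogenes, antisense or read-through transcripts and genes placed in none of the named classes. Among the last were ATP5S, ATP5SL, ATP5L2, COX7A2L, NDUFA4L2 and Cox4nb, and not all of these share only a name with the members. In GM12878, 18 of them on 18 baits made 126 calls. ATP5SL, now known as a complex I assembly factor, made 27, all to one side at 46.9 to 162.1 kb, and 14 overlapped CEACAM21 with a score of up to 16.4. The pseudogene COX6A1P2 made 19, and the bait named after UQCRHP1, which lies among immune genes (AIF1, LST1, NCR3), made 10, the highest to DDX39B (19.9 on 48 reads). In mESCs, 4 such symbols (Atp5sl, Cox4nb, Cox7a2l and Ndufa4l2) made 20 calls.

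Contacts between member baits were few in GM12878. The 2 NDUFS8 baits, 10.9 kb apart, were joined by a call in 1 direction (10.99 on 24 reads). The NDUFS7 bait reached, at 140.1 kb, the fragment that carries ATP5D, CIRBP and MIDN (9.51 on 11 reads). NDUFS7 carries an iron-sulphur centre of complex I and ATP5D is the delta subunit of the ATP synthase rotor. In mESCs no member bait called another, but Ndufs7 reached a fragment within Atp5d at 101.8 kb (5.92 on 12 reads), and Ndufs7 and Atp5d called 4 of the same other ends, named U6.488, Gpx4, Midn and Cirbp. Gpx4 encodes a glutathione peroxidase. Cox7a1 and Cox6b1 had 2 other ends in common and Ndufaf3 and Uqcrc1 had 1, Slc26a6.

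Further genes of the pathway were read from 7 lists. The share of all genes found on a listed bait was not computed, so these counts are not read as high or low. The mouse counts take only genes that name a bait. Of the 6 complex II genes listed, 3 were on GM12878 baits (SDHB, SDHC and SDHAF1) with 52 calls (median 17). In mESCs, 3 were listed (Sdhc, Sdhd and Sdhaf2) with 15 calls (median 4). For complex III assembly factors, 3 of 7 were on GM12878 baits with 56 calls (median 16), and 2 on mESC baits with 6 (median 3). For complex IV assembly factors, 12 of 22 were on GM12878 baits with 69 calls (median 3), and 5 on mESC baits with 51 (median 4). Of 14 transcription regulators, 11 and 10 were listed, with 40 and 56 calls, and their median of 2.5 and 4.5 calls stood beside 3 over all other baits. The GM12878 regulator calls include the 5 of the bait shared by ATP5J and GABPA, which is also a member bait. In the remaining lists the GM12878 and mESC medians were 6 and 10 for cytochrome c and c1. They were 5 and 9 for complex I assembly outside the NDUF names, and 3.5 and 2 for ATP synthase outside the ATP5 names. The GM12878 member calls to such genes included COX6B1 to SDHAF1, a complex II assembly factor (5.22 on 7 reads, 343.9 kb), and ATP5O to MRPS6, a mitochondrial ribosomal protein (9.11 on 12 reads, 153.0 kb). In mESCs, Uqcrh reached Atpaf1, an ATP synthase assembly factor (5.09 on 3 reads, 289.3 kb).

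The same symbol had calls in both cell types for 47 genes, of which 21 had more calls in GM12878, 19 more in mESCs and 7 as many. Large differences in favour of GM12878 were those of ATP5G2 (41 and 7 calls) and, with 20 more calls each, ATP5SL (27 and 7) and NDUFC1 (24 and 4). Those in favour of mESCs were led by COX6B1 (11 and 33), ATP5E (5 and 23) and NDUFV2 (3 and 18). The cell types differ in species, capture design, fragment length and number of replicates, so cell type and these properties cannot be told apart. A partner gene start was common to both for 17 of the 47 symbols. Beside those given above, COX7B reached PGK1, a glycolytic enzyme, at 166.9 kb in GM12878 (score 5.30) and 167.8 kb in mESCs (11.5), and ATP5D reached CNN2, NDUFA4L2 STAT6, NDUFA9 DYRK4, NDUFB10 RAB26 and COX6B2 BRSK1. The 17 also count NDUFAF3 with QRICH1, but the GM12878 NDUFAF3 bait itself carries QRICH1, so this is not a separate partner there. With the names of baited other ends alone, which could be read for every gene, 9 of the 47 members had a common partner (19.1%, interval 10.4 to 32.5%), against 23.3% of 7833 other symbols.

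**Figure D4:**
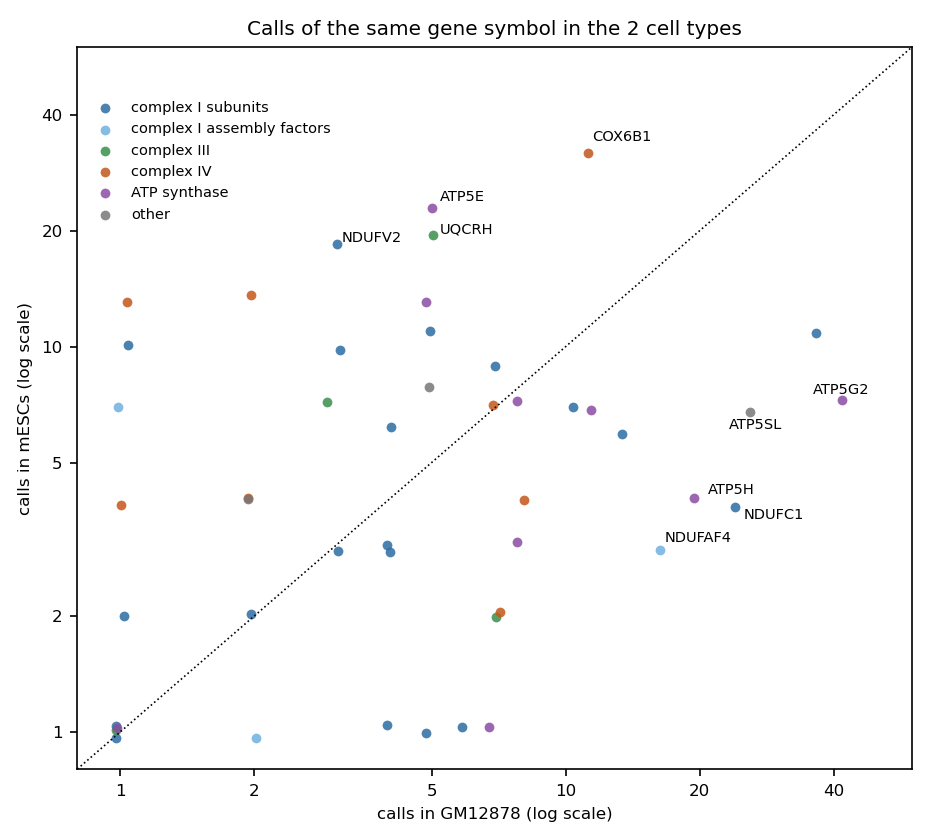
Calls of each of the 47 member symbols listed in both cell types, GM12878 against mESCs on log axes, coloured by class and moved by up to 4% to part equal values; the dotted line marks equality. ATP5G2, ATP5SL, NDUFC1 and ATP5H lie far below it and COX6B1, ATP5E, UQCRH and NDUFV2 far above.

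Some baits called baited fragments alone and some called none. Among GM12878 member baits with at least 5 calls, 5 of 39 (12.8%, interval 5.603 to 26.7%) called baited fragments alone, where 14.6% of all such baits did, and 8 (20.5%) called none, where 27.5% did. In mESCs, 5 of 26 (19.2%, interval 8.51 to 37.9%) called baited fragments alone, where 11% of all such baits did, and 3 (11.5%) called none, where 14.3% did. The 5 mESC baits included Uqcrh, Atp5g2, Atp5b and Ndufaf3, and their median reads per call ran from 4 to 14. The median of this value over the 5 baits was 11, against 12 for the rest of the mESC member baits with at least 5 calls. Among other mESC baits it was 8 for baits with baited partners alone and 13 for the rest. In GM12878 the values were 18 and 16.5 for member baits, and 10 and 16 for other baits. For the human counterparts, UQCRH made no bait-to-bait call in GM12878 and ATP5G2 made 2 of 41.

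Calls over 1 Mb were few. In GM12878, 2 of 543 member calls (0.368%, interval 0.101 to 1.33%) were longer, against 1.64% of calls of other baits, and these came from 2 baits, where 3.5% of all baits made such a call. They joined UQCRB to MTDH over 1411 kb (7.96 on 7 reads) and UQCRFS1, the Rieske iron-sulphur protein, to a fragment in ZNF536 over 1366 kb (5.99 on 8 reads). The next longest was that of the pseudogene ATP5G1P1, at 752.3 kb. In mESCs, 6 of 384 (1.56%, interval 0.718 to 3.37%) were longer against 3.38%. They came from 4 of the 58 member baits, close to the 6.68% of all listed baits that made one. Uqcrh made 3 of them, to Btf3l4 over 7242 kb, to U1.148 over 1229 kb and to Tal1, a haematopoietic regulator, over 1012 kb, all on 3 reads. The others were Cox6b2 to Tmc4 (1084 kb), Ndufb10 to Fam173a (1064 kb) and Atp5d to Pias4 (1024 kb), on 5 to 8 reads.

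No *trans*-chromosomal call came from a GM12878 member, which allows a share of up to 0.552% (3 of 543), where other baits had 0.312% and 0.273% of baits made one. In mESCs there were 2 of 384 (0.521%, interval 0.143 to 1.88%) against 0.569%, from 2 baits where 2.02% of baits made one. Ndufa6, a complex I accessory subunit, reached an intergenic fragment on chromosome 5 (30.2 on 5 reads), and a search with blastn aligned no stretch of the 2 fragments. Cox4nb, whose bait also holds the start of Cox4i1, reached a fragment on chromosome 6 with the highest score of all mouse member calls (66.4 on 12 reads), and the longest stretch that aligned was 59 bp at 84.7% identity. It was the only listed call of that bait.

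The mESC Hi-C library, made without capture, gave a second reading of the same contacts. Of 376 member calls under 1 Mb, 21 (5.59%, interval 3.68 to 8.39%) lay in a pair of 25-kb bins listed by the authors at a false discovery rate (FDR) under 0.05, against 11.6% of 97450 calls of other baits. The share was lower in each distance class, from 10.3% against 13.2% under 50 kb to 0 of 28 against 11.01% from 400 kb to 1 Mb, where a count of 0 allows up to 10.7% by 3 counts and 12.1% by the Wilson interval, so that no difference was detectable there at this depth. The member intervals held the other baits' value under 50 kb, at 100 to 200 kb and from 400 kb up. Among calls with a score of at least 10 the shares were 3 of 51 (5.88%, interval 2.02 to 15.9%) and 28.6%. Member calls carried fewer reads than the rest in mESCs, with a median of 11 against 13, and the part of this in the Hi-C share was not tested.

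**Figure D5:**
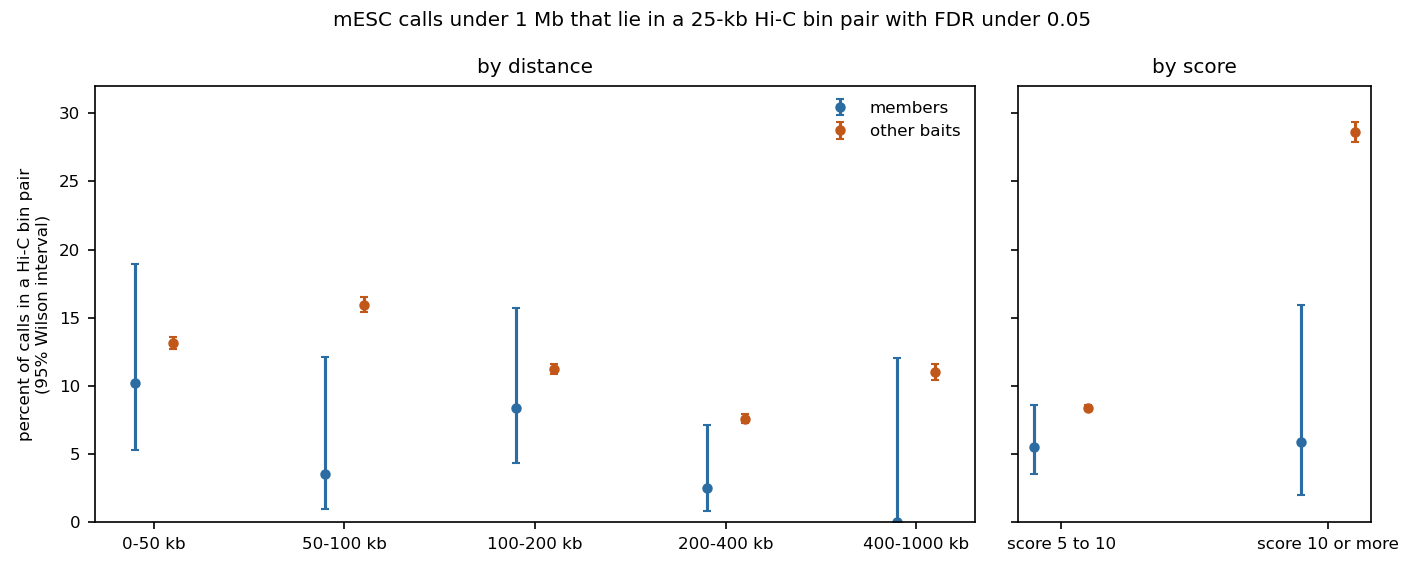
Percent of mESC calls under 1 Mb that lie in a listed 25-kb Hi-C bin pair, with 95% Wilson intervals, for members (blue) and other baits (orange), by distance (left) and by CHiCAGO score (right). Members stand below other baits in each class, most clearly at a score of at least 10 (5.88% against 28.6%).

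The 21 calls lay in 11 different bin pairs and came from 8 of 57 baits. Atp5d gave 6 of 12 calls, Ndufs7 4 of 10 and Ndufa4l2 4 of 8, all on chromosome 10, Ndufv2 and Cox7a1 gave 2 each, and Atp5k, Ndufb10 and Atp5o 1 each. The bin pair behind 3 of the Atp5d calls, at 134.4 to 149.98 kb, held 30 Hi-C read pairs where 5.78 were expected. None of the 33 Cox6b1 calls, the 23 Atp5e calls or the 16 Uqcrh calls under 1 Mb lay in such a pair. Of the 8 longer or *trans* calls, 3 lay in a listed 1-Mb bin pair (Atp5d to Pias4, Cox6b2 to Tmc4 and Uqcrh to Btf3l4), against 57.2% of 4007 calls of other baits.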

How the data were processed

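The data were promoter CHi-C of GM12878 (3 replicates) and mESCs (2), and Hi-C of mESCs (1). Per the paper they came from earlier publications. Per the study's methods the authors processed reads with HiCUP and called interactions with CHiCAGO. The submitters' processing notes also name Bowtie 1.1.0 and HOMER 4.7. The deposited lists give for each call a CHiCAGO score, used as deposited, and a read count that is a rounded, weighted mean over replicates, so it was treated as a score and not as a raw count. The deposited Hi-C lists give read-pair counts, the expected read pairs (a signal) and an FDR, a multiple-testing-adjusted p-value, per bin pair. Replicates were merged by the authors, so the calls cannot be split by library and no test was run. The paper gives captured read pairs per replicate, but the merged calls do not carry them. It also describes the first GM12878 replicate as likely of poorer quality than the others. No paired analysis was possible because each cell type has a single merged list.

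Lines were read in pairs, bait then other end. Symbols were split at semicolons, and transcript suffixes removed. All 56775 human and 52640 mouse listed fragments had HindIII ends in hg19 and mm9. A call is *cis* when both fragments share a chromosome. A Hi-C match required both fragment midpoints in the bins of a listed pair. Tables were made in Python 3.11.15 with pandas 2.3.3, fragments aligned with blastn 2.17.0, and the reading functions were checked on simulated lines. The genes named are those with the most calls and the highest score per class, the 3 baits with the most calls, the 3 highest-scoring and 3 longest calls, all *trans* and member-to-member calls, and the symbols that differed most or had common partners in both cell types. A member gene and a partner gene that this rule would name are not reported here, but enter the totals. Members, lists and rule were chosen with earlier results of these data known. Tissue forms, the split by baited partners alone, and partners described beyond that rule were chosen after their values were seen. Alternatives were a score of at least 10, each fragment pair once, the deposited browser list, baits with member symbols alone, structural subunits alone, an FDR under 0.01 and every listed bin pair.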

Additional observations from a re-analysis of the deposited data

How the results depend on the processing

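Of 59 alternative values, 40 moved by less than their counting interval (for counts, less than 1.5 times) and 19 moved by more. The 40 include the mESC values for baits with member symbols alone. These could not move, because no mESC member bait carried 2 or more symbols. The order of members and other baits turned in 3 of them, the mESC median distance and the GM12878 bait-to-bait share at a score of at least 10, and the GM12878 bait-to-bait share of baits with member symbols alone. In the last of these only the member baits were restricted, and the other baits kept those with several symbols. With a score of at least 10, GM12878 members had 95 calls, a median of 2 per bait, 44.2% bait-to-bait (other baits 44.7%), a median distance of 134.3 kb (148.5 kb) and 0 calls over 1 Mb, which allows up to 3.16% by 3 counts and 3.89% by the Wilson interval (3.25%), and mESC members had 53 calls, a median of 1, 67.9% bait-to-bait (47.7%), 91.7 kb (109.6 kb) and 0 over 1 Mb, which allows up to 5.66% or 6.76% (7.55%). At that score 8 genes had calls in both cell types. With each fragment pair once, the GM12878 bait-to-bait share was 28.9% (26.0%). With the browser list, where a pair called only from the partner's bait also counts for members, it was 44.5%, and 55.2% in mESCs. With GM12878 baits that carry member symbols alone there were 161 calls, 23.6% of them bait-to-bait (29.4%), 0 were over 1 Mb, which allows up to 1.86% or 2.33% (1.64%), and 20 genes had calls in both cell types. With every listed Hi-C bin pair the Hi-C share was 22.3% (29.9%). Structural subunits alone moved none of 11 values. Left out after seeing the data, the bait with the most calls in a class moved the bait-to-bait share of assembly factors to 60.0% in GM12878 (without NDUFAF4) and 25.0% in mESCs (without Ndufaf3), and that of mESC complex III to 20.0% (without Uqcrh). The causes of these moves were not tested beyond what each alternative's construction states. No paired analysis was possible because the authors' calls pool the replicates. Merged calls hold no per-library depth, so the lowest reads per call, 3, set how firmly the long Uqcrh calls can be read.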
